A study of Mus musculus with 6 samples.

Results

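The BTB zinc finger family joins an amino-terminal BTB domain, through which the proteins pair with each other and recruit corepressors and the ubiquitin ligase scaffold Cul3, to carboxy-terminal zinc fingers that bind DNA. In the blood system its members set lymphocyte fates. PLZF, encoded by Zbtb16, drives the effector programme of natural killer T cells and other innate-like lymphocytes, and its relatives act in CD4 T cell commitment (Zbtb7b), plasma cell survival (Zbtb20) and red cell development (Zbtb7a). The family was taken as all probe sets that the platform annotation assigns to 1 gene symbol beginning with Zbtb. This gave 87 of the 45101 probe sets on the array, for 40 genes of the 18193 that had a single symbol. All but 1 of the 40 symbols name BTB zinc finger proteins. The exception is Zbtb11os1, an opposite-strand transcript at the Zbtb11 locus that the symbol rule brought in.

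Expression had been measured with Affymetrix Mouse430_2 arrays in whole spleen of Balb/c mice aged 6 to 8 weeks and kept free of pathogens. The control group was 3 spleens of mice exposed to nothing, and the labels mention no sham dosing. The PFOS group was 3 spleens of mice given perfluorooctane sulfonate, a persistent fluorinated surfactant, into the stomach at 10 mg per kg body weight each day for 3 weeks. The comparison asks which transcripts of the spleen differ after this exposure. The labels give all 6 mice as female, but the Y-linked gene Eif2s3y read 9.62 to 9.91 and the X-inactivation transcript Xist no more than 5.86 at its brightest probe set, so the arrays go against that label in both groups. Replicates are biological per the labels, which do not say from what cages or days, and p-values below measure only the spread among 3 arrays a group, a number that limits the precision.

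Values are log2 RMA levels, so a difference of 1 is a 2-fold change, and each change is PFOS minus control with limma's standard error (SE) and a p-value adjusted over all 13101 genes tested. A call means an adjusted p under 0.05. Array levels of different probe sets are not comparable with each other, so only changes are compared between genes. The spleens differed widely outside the family. Over all genes tested, 40.6% were called higher and 26% lower. All 16 tested erythroid markers, all 19 mitosis genes and 14 of 15 hepatocyte genes were lower in PFOS, with median changes of -1.57, -1.48 and -3.41, while 16 of 17 T cell and 13 of 14 B cell markers were higher, with medians of 0.41 and 0.40. In whole tissue, fewer cells of a type cannot be told apart from less RNA per cell. The hepatocyte gene Alb read 10.97, 11.04 and 11.07 in control and 5.88, 5.93 and 5.82 in PFOS. Where hepatocyte transcripts in these spleen samples came from was not tested, which limits comparisons with the controls. No array stood apart from its group, since correlations were 0.9985 to 0.9991 within groups and 0.9690 to 0.9698 between them.

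The family as a whole did not stand out from the rest of the array, whereas Zbtb16 rose more than any other member. Of the 38 Zbtb genes that passed the filter on low values, 16 were higher and 7 lower in PFOS, and 15 were not called. The call rate over all genes was 66.6% in either direction, 40.6% higher and 26% lower, against 60.5%, 42.1% and 18.4% for the Zbtb genes. The median Zbtb change was 0.06, beside 0.05 for all genes, and its sign turned with ribosomal protein genes as the reference for scaling (-0.03) or with the T cell list (-0.38). The groups of arrays did not overlap for 15 Zbtb genes with PFOS above and 8 with PFOS below, where 71.1% of all genes had no overlap (43.2% above and 27.8% below). Called changes had a median size of 0.16 in the family and 0.23 over all genes, and Zbtb16 was the only tested member that changed at least 2-fold in the deposited values.

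The split of calls depends on how the arrays are scaled. Transcripts spiked into the RNA before labelling read 6.65 ± 0.01 (SD, n = 3) on control arrays and 6.11 ± 0.02 on PFOS arrays, that is -0.53 apart (two-sided exact permutation p = 0.1, the smallest that 3 against 3 arrays allow), and their part in the results below was not tested. Scaling on these spikes moved the median of all genes to 0.59 and put all 38 tested Zbtb genes past the limma threshold on the higher side. Scaling on the T cell markers, of which 16 of 17 were themselves called higher as deposited, moved that median to -0.39. It gave 2 Zbtb genes higher and 35 lower. With ribosomal protein genes as the reference, 7 were higher and 13 lower. Of the genes called over the whole array, 61% were higher as deposited and 94.3%, 1.94% and 39% under these scalings, in that order. These were 5324 of the 13101 genes tested as deposited, and 12065, 239 and 3278 under the scalings. Such a scaling shifts every gene by the same amount, so the order of the changes is fixed. Which signs turn then follows from the size of each change.

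**Figure D1:**
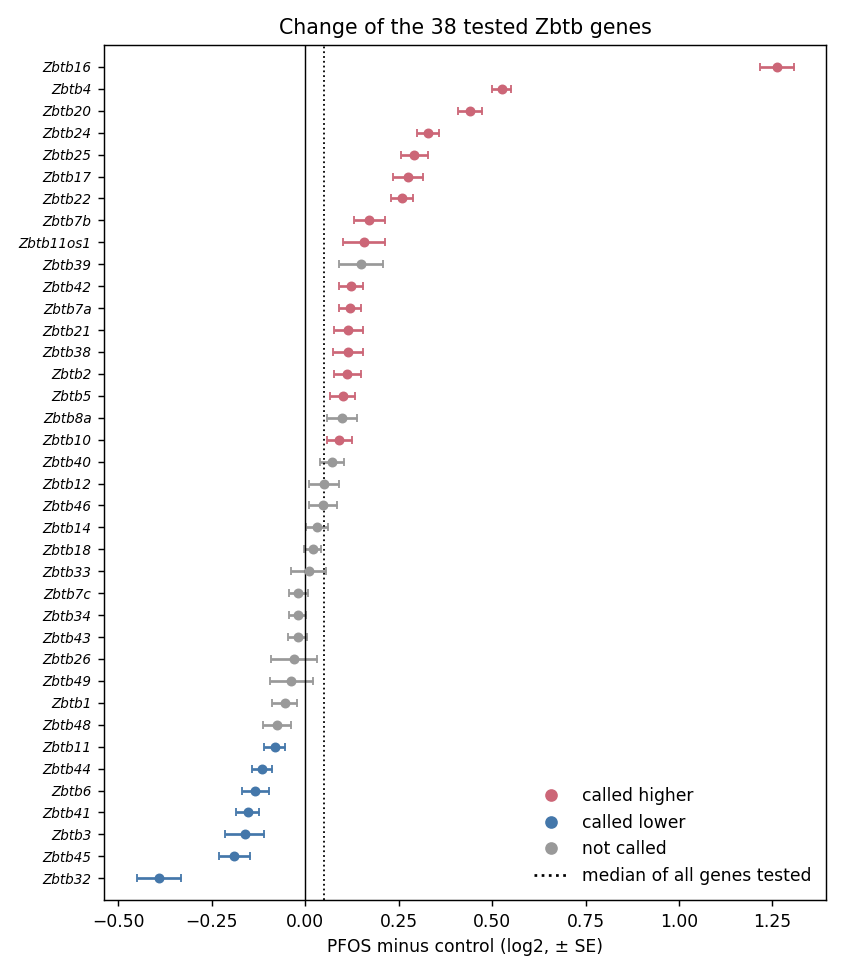
Log2 change (PFOS minus control, x axis) of the 38 tested Zbtb genes, one row each, with bars for limma's SE; red and blue mark genes called higher and lower, grey those not called, and the dotted line the median of all genes. Zbtb16 lies apart at 1.26, the next member, Zbtb4, at 0.53, and Zbtb32 is lowest at -0.39.

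Zbtb16 is covered by 3 probe sets, and all 3 were higher in PFOS. The probe set that stands for the gene, 1439163_at, read 7.04, 7.19 and 7.15 in the control spleens and 8.33, 8.41 and 8.43 in the PFOS spleens. No control array came near the lowest PFOS array, and the change was 1.26 ± 0.05, or 2.4-fold (limma adjusted p = 4.23e-07), which ranked 3 among the rises of all genes tested. Probe set 1419874_x_at went from 5.13, 5.08 and 5.20 in control to 7.14, 7.11 and 7.15 in PFOS. Its control levels lie under the filter floor of 5.62, which makes the size of its change, 1.99 ± 0.04, dependent on the array's background, and its _x_at suffix marks probes that may also bind other transcripts.

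The remaining Zbtb16 probe set, 1427638_at, moved much less. It read 5.83, 5.86 and 5.65 in control and 6.01, 6.06 and 6.02 in PFOS, so the groups were separate but close to the floor (change 0.25 ± 0.05, limma adjusted p = 0.00444 over 22434 probe sets). Between the probe sets with both group means above the floor, the size of the rise thus differed, from 0.25 to 1.26. Leaving out any single array gave changes of 1.22 to 1.29 for the gene. Of all tested members, Zbtb16 and Zbtb4 alone stayed called higher under each of the 5 other scalings tried. Scaled on the labelling spikes the Zbtb16 change was 1.80, and scaled on the T cell list 0.82 ± 0.05 (limma adjusted p = 9.80e-07).

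**Figure D2:**
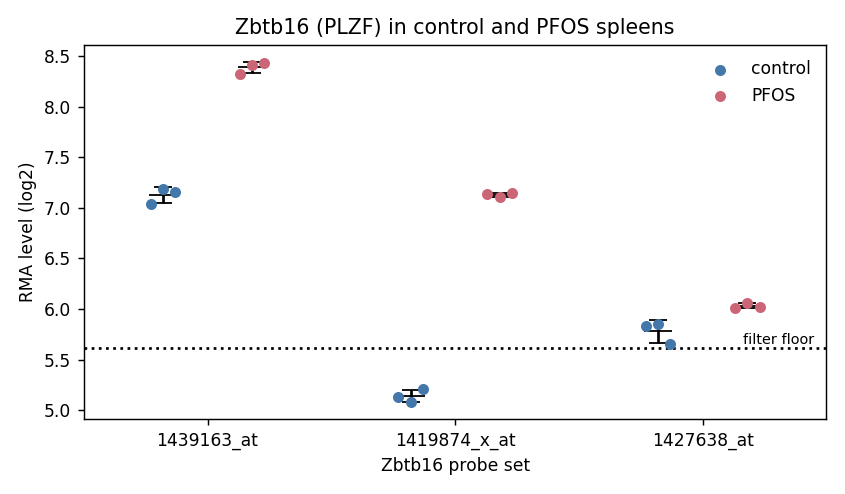
RMA levels (log2, y axis) of the 3 Zbtb16 probe sets (x axis) in 3 control (blue) and 3 PFOS (red) spleens; points are arrays, black bars the mean ± SD, and the dotted line the filter floor of 5.62. PFOS lies above control in each probe set, by 1.26, 1.99 and 0.25 from left to right.

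Genes known from PLZF-dependent lymphocytes were mostly higher as well, by smaller amounts. Without Zbtb16 itself, 16 of 20 tested genes of the innate-like lymphocyte list were called higher and 1 lower, at a median change of 0.39. These were 80% and 5%, beside 40.6% and 26% of all genes. The T cell and B cell lists rose as much, at medians of 0.41 and 0.40, so the rise was not particular to this list. Il7r, the interleukin 7 receptor, changed by 0.68 ± 0.02, the chemokine receptor Ccr6 by 0.71 ± 0.03, and Slamf6, a receptor that helps select natural killer T cells, by 0.55 ± 0.02. Egr2, a transcription factor that acts upstream of PLZF in thymic natural killer T cells, fell by 0.11 (limma adjusted p = 0.036). Il7r is also a T cell marker, and Klrb1c, Il23r, Il4 and Ifng of this list were not among the genes tested.

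Other lymphocyte markers moved beside Zbtb16, and their part in its rise was not tested. The summed level of the 17 T cell markers, on the log2 scale, ran from 13.07 to 13.09 in control and from 13.58 to 13.60 in PFOS. For the 11 NK cell markers it ran from 11.43 to 11.44 in control and from 11.37 to 11.40 in PFOS. Of these, 6 were called higher and 2 lower, at a median change of 0.13. That is 54.5% and 18.2%, beside 40.6% and 26% of all genes. Sums of this kind weigh the brightest probe sets most. Gzma, the granzyme of killer cells, fell by 0.52 from a control mean of 9.85, and Eomes rose by 0.30. The largest rise among the T cell markers was 0.77. Zbtb16 rose by 1.26 at the probe set that stands for it. Its other probe sets rose by 0.25 and by 1.99, the latter from control levels under the floor.

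**Figure D3:**
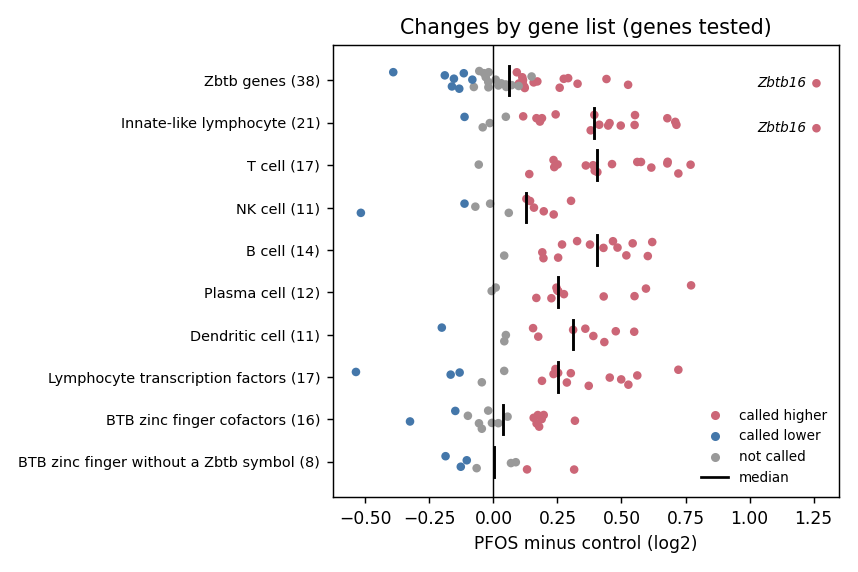
Log2 change (x axis) of the tested genes in the Zbtb family and in 9 lists (y axis, number tested in brackets); each point is a gene, coloured by its call, and black bars are medians. Zbtb16 lies to the right of every other gene drawn, and the Zbtb median of 0.06 lies left of the T cell median of 0.41.

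After Zbtb16, the largest rises were those of Zbtb4 and Zbtb20. Zbtb4, a repressor that binds methylated CpG sites, read 9.42, 9.38 and 9.40 in control and 9.91, 9.92 and 9.95 in PFOS, a change of 0.53 ± 0.03 or 1.44-fold (limma adjusted p = 1.96e-06). The arrays were far apart relative to their spread. Its other 3 tested probe sets differed by 0.32, 0.18 and -0.02, and the last was not called. Scaled on the T cell list, the change of Zbtb4 was 0.09 (limma adjusted p = 0.0137).

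Zbtb20, a factor that supports long-lived plasma cells and represses alpha-fetoprotein in liver, was read by 9 probe sets. Of these, 8 were called higher, with changes from 0.10 to 0.45, and 1437066_at differed by -0.04 without a call. The probe set that stands for the gene read 10.13, 10.06 and 10.03 in control and 10.51, 10.51 and 10.53 in PFOS (0.44 ± 0.03, limma adjusted p = 1.62e-05). Plasma cell markers were called higher in 10 of 12 cases, or 83.3% beside 40.6% of all genes, with a median of 0.25. Their part in the Zbtb20 rise was not tested. On the T cell scaling the Zbtb20 change was 0.0046 and no longer called (limma adjusted p = 0.898).

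Smaller rises were seen in Zbtb24, Zbtb25 and Zbtb17. Zbtb24, whose human counterpart is mutated in an immunodeficiency with unstable centromeres, went from 8.09, 8.04 and 8.02 to 8.38, 8.35 and 8.40 (0.33 ± 0.03, limma adjusted p = 4.38e-05). Zbtb25 went from 6.72, 6.74 and 6.71 to 6.94, 7.05 and 7.06 (0.29 ± 0.04). Zbtb17, known as Miz-1, a partner of MYC that early lymphocytes need, went from 7.93, 7.98 and 7.99 to 8.16, 8.30 and 8.27 (0.27 ± 0.04). The groups did not overlap for these 3 genes, but each change was negative on the T cell scaling, at -0.11, -0.15 and -0.16. Further called rises, those of Zbtb22, Zbtb11os1, Zbtb42, Zbtb21, Zbtb2, Zbtb5 and Zbtb10, ran from 0.09 to 0.26.

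Zbtb32 had the largest fall of the family. It encodes a repressor, also called ROG, that is induced in activated lymphocytes and restrains them. Its tested probe set, 1432459_a_at, read 7.43, 7.65 and 7.63 in control and 7.13, 7.20 and 7.20 in PFOS, a change of -0.39 ± 0.06 or 1.31-fold lower (limma adjusted p = 0.000771). The groups were separate, although control replicate 1 lay below the other controls. The other probe set, 1447330_at, lay under the floor at 4.12 to 4.48 and went the opposite way, by 0.25. On the spike scaling the tested probe set was 0.14 higher.

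The other falls were small. Zbtb45 went from 6.94, 6.99 and 6.95 in control to 6.73, 6.86 and 6.72 under PFOS (-0.19 ± 0.04, limma adjusted p = 0.00461). Zbtb41 changed by -0.15 ± 0.03, Zbtb6 by -0.13 ± 0.04 and Zbtb44 by -0.12 ± 0.03. Zbtb41 and Zbtb44 each had another tested probe set that was also called lower, at -0.13 and -0.13. The other tested probe set of Zbtb3 differed by -0.09 and was not called. The one that stands for it, an _x_at probe set, changed by -0.16 ± 0.05, and this call was lost without control replicate 2, control replicate 3 or PFOS replicate 3 (limma adjusted p = 0.069, 0.075 and 0.051). Zbtb11 was the remaining called fall, at -0.08 ± 0.03, and lost its call when control array 1, control array 2, PFOS array 2 or PFOS array 3 was left out. All 7 falls were rises on the spike scaling.

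Promoter windows from RefSeq (build GRCm38.p6, C57BL/6J reference) were matched by symbol for 35 of the 40 genes, and none was found for Zbtb10, Zbtb16, Zbtb40, Zbtb48 and Zbtb7c. The windows of 3 members that rose, Zbtb4, Zbtb20 and Zbtb24, and the upstream window of the member that fell most, Zbtb32, are shown because these genes lead the called changes after Zbtb16, each as the 250 bases before the annotated start on the gene's own strand. Capitals mark matches on either strand to 4 motifs. The GC box was searched as GGGCGG and the CCAAT box by the letters of its name. The ETS motif was searched as CCGGAA, and the GATA motif, found in none of the 4 windows, as AGATAA. Matches to different motifs can overlap by their end letters.
Zbtb4, chr11:69765662-69765911, plus strand: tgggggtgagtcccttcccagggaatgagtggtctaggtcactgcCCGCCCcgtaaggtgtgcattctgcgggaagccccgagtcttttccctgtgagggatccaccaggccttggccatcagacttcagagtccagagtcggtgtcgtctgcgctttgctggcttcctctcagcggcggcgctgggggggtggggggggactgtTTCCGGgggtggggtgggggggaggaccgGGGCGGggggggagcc
Zbtb20, chr16:43247034-43247283, plus strand: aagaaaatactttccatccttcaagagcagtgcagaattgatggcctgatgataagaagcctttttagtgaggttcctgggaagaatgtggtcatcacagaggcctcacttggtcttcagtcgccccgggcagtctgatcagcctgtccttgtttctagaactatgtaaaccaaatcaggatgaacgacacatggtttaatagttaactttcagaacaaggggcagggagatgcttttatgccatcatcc
Zbtb24, chr10:41450108-41450357, plus strand: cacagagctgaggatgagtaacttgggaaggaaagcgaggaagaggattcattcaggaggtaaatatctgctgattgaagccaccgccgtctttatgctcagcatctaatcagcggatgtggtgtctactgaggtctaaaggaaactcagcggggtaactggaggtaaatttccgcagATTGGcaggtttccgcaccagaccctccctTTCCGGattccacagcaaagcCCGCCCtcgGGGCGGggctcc
Zbtb32, chr7:30598910-30599159, minus strand: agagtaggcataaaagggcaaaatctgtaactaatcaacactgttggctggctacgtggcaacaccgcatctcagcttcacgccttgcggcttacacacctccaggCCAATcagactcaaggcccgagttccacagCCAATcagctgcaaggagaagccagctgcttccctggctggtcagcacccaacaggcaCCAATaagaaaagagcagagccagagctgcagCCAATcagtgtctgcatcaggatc

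The upstream Zbtb32 window held 4 CCAAT boxes and no GC box. At least 4 were held by 0.84% of the 32851 windows in the table and by 3 of the family's 48, this one included. The window at the other annotated start of Zbtb32 held none of the 4 motifs, nor did that of Zbtb20, with a GC content of 44.8%. Zbtb4 held 2 GC boxes and 1 ETS motif, and Zbtb24 held 2 GC boxes, 1 ETS motif and 1 CCAAT box. Over the 48 windows of the family, 60.4% held a GC box, 29.2% a CCAAT box, 29.2% an ETS motif and 6.25% a GATA motif. Over all windows these shares were 32.7%, 33.8%, 12% and 9.99%. The family's windows had a median GC content of 64.6% and 19.5 CpG sites, against 52.4% and 6, and GC boxes and ETS motifs share this base composition. GC boxes were present in 14 of 19 windows of genes called higher and 6 of 9 of genes called lower, and in 8 of 18 of genes not called. These are letter matches and were not tested against the changes.

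Of the 10 members with known immune roles, Zbtb16 among them, 7 were called higher and 1 lower, at a median of 0.22. These were 70% and 10%, beside 40.6% and 26% of all genes, in a list chosen with earlier results known. Zbtb7a counts as higher here, although 1 of its probe sets was called lower. Zbtb7b, or ThPOK, which commits thymocytes to the CD4 lineage, read 7.37, 7.47 and 7.45 in control and 7.54, 7.60 and 7.67 in PFOS (0.17 ± 0.04, limma adjusted p = 0.00832). Both of its probe sets were called higher, but the call was lost with ribosomal protein genes as the reference (change 0.08) and turned to a fall of 0.27 on the T cell scaling. In the same arrays Cd4 rose by 0.25, Cd8a by 0.40 and Cd3e by 0.14, and Zap70 differed by -0.06 without a call.

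Zbtb46, which marks classical dendritic cells, was not called. Its levels were 8.07, 8.14 and 8.11 in control and 8.21, 8.09 and 8.17 in PFOS, with overlapping groups and a difference of 0.05 ± 0.04 (limma adjusted p = 0.281). Of the 11 dendritic cell markers tested, Zbtb46 among them, 8 were called higher and 1 lower, the median change being 0.31. These were 72.7% and 9.09%, beside 40.6% and 26% of all genes. Zbtb1, a guardian of lymphoid progenitors, read 8.64, 8.54 and 8.56 in control and 8.51, 8.52 and 8.55 in PFOS and was not called either (-0.06 ± 0.03, limma adjusted p = 0.178).

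Of the 3 members that bind methylated DNA, Zbtb4 and Zbtb38 were called higher and Zbtb33 was not called. Zbtb33, or Kaiso, read 9.025, 8.997 and 8.990 in control and 9.115, 8.999 and 8.925 in PFOS. These groups overlapped, at a difference of 0.01 ± 0.05 (limma adjusted p = 0.875). Zbtb38 read 7.90, 7.79 and 7.91 in control and 7.94, 8.03 and 7.97 in PFOS, a change of 0.11 ± 0.04 close to the threshold (limma adjusted p = 0.040). The call was lost without control replicate 2 (0.112), PFOS replicate 2 (0.124) or PFOS replicate 3 (0.080). Its other tested probe set, 1434687_at, rose by 0.53, and 1438269_at, under the floor, differed by -0.12.

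Probe sets of one gene often disagreed. Of 72 Zbtb probe sets past the filter, 32 were called higher and 12 lower, where 63.9% of all 22434 probe sets were called, 36.4% higher and 27.4% lower. Among the 18 Zbtb genes with several tested probe sets, 9 had probe sets of both signs, or 50%, beside 38% of 5628 such genes over the array. Those were Zbtb1, Zbtb4, Zbtb7a, Zbtb7c, Zbtb14, Zbtb20, Zbtb34, Zbtb43 and Zbtb46. In Zbtb10 the probe set that stands for the gene was called in the gene fit only, while 1436068_at rose by 0.41.

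Zbtb7a was the 1 member of these 18 with probe sets called in both directions, or 5.56%, beside 11.8% of such genes over the array. Its protein, LRF, is needed for red cell survival and for the B cell fate. The probe set that stands for it, 1452932_at, read 7.86, 7.80 and 7.88 in control and 8.00, 7.96 and 7.94 in PFOS (0.12 ± 0.03, limma adjusted p = 0.00882), and 1437255_at rose by 0.15. In contrast, 1450093_s_at read 7.04, 6.99 and 7.14 in control and 6.20, 6.16 and 6.18 in PFOS, a change of -0.88 ± 0.04 with no overlap (limma adjusted p = 1.62e-06 over all probe sets). The mean over its probe sets changed by -0.20. Erythroid markers were lower at the same time, with a median of -1.57, and their part in this probe set's fall was not tested.

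A like split was seen in Zbtb14. The probe set that stands for the gene, 1437585_x_at, differed by 0.03 ± 0.03 and 1420865_at by -0.05, and neither was called. In contrast, 1420866_at went from 7.43, 7.56 and 7.52 in control to 7.06, 6.97 and 6.90 in PFOS (-0.53 ± 0.05, limma adjusted p = 6.46e-05 over all probe sets), and 1420864_at fell by 0.47 to a PFOS mean under the floor. In Zbtb43 the gene's probe set differed by -0.02 and the other rose by 0.19, and in Zbtb34 these values were -0.02 and 0.09. For Zbtb7c, Zbtb1 and Zbtb46, no probe set of either sign was called.

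**Figure D4:**
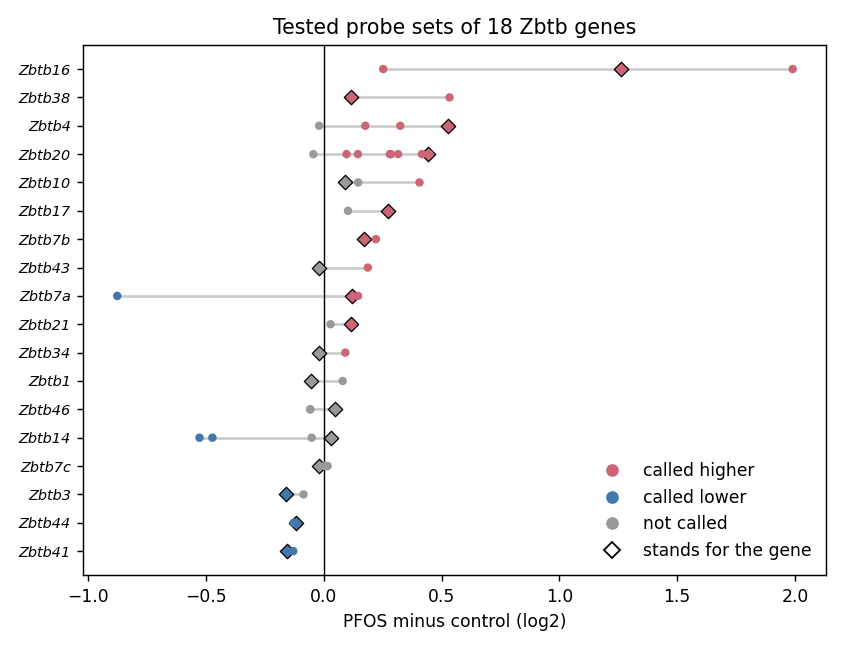
Log2 change (x axis) of each tested probe set of the 18 Zbtb genes with more than 1 (y axis); diamonds stand for the gene, circles are its other probe sets, and colours give the call over all probe sets. Zbtb16 spans 0.25 to 1.99 on one side of 0, and Zbtb7a spans -0.88 to 0.15 across it.

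The genes that were not called had changes from -0.08 to 0.15. They were Zbtb1, Zbtb7c, Zbtb8a, Zbtb12, Zbtb14, Zbtb18, Zbtb26, Zbtb33, Zbtb34, Zbtb39, Zbtb40, Zbtb43, Zbtb46, Zbtb48 and Zbtb49. Zbtb37 and Zbtb8b had no probe set past the filter. Zbtb39 had the smallest p among them (0.15 ± 0.06, limma adjusted p = 0.0544). Of the 23 called members, 15 kept the call when any one array was left out, 10 of them higher and 5 lower. The 8 that lost it without at least 1 array were Zbtb2, Zbtb3, Zbtb5, Zbtb10, Zbtb11, Zbtb11os1, Zbtb21 and Zbtb38. The share of all called genes that kept their call is not given here. Over all genes, 60.8% to 65% were called without 1 array, beside 66.6% with every array.

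Family members whose symbols do not begin with Zbtb were also called in both directions. Of 8 tested, 2 were called higher and 3 lower, or 62.5% called beside 66.6% of all genes, the median change being 0.0014. Bcl6, the repressor that forms germinal centres, rose by 0.32 ± 0.02 (limma adjusted p = 1.3e-05), and Gzf1, Bcl6b and Patz1 fell by 0.13, 0.19 and 0.10. Among 16 tested cofactors, 7 were called higher and 2 lower, or 43.8% and 12.5% beside 40.6% and 26% of all genes, at a median of 0.04. The corepressor parts Tbl1xr1, Sin3a and Hdac5 rose by 0.17, 0.18 and 0.19, Mta3, which works with Bcl6, fell by 0.33, and Cul3 differed by -0.06 without a call. Other lymphocyte transcription factors moved more, with 12 of 17 higher, 3 lower and a median of 0.25. These were 70.6% and 17.6%, beside 40.6% and 26% of all genes. Among them were Bcl11b (0.72), Lef1 (0.56), Foxo1 (0.45) and Myb (-0.54).

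**Figure D5:**
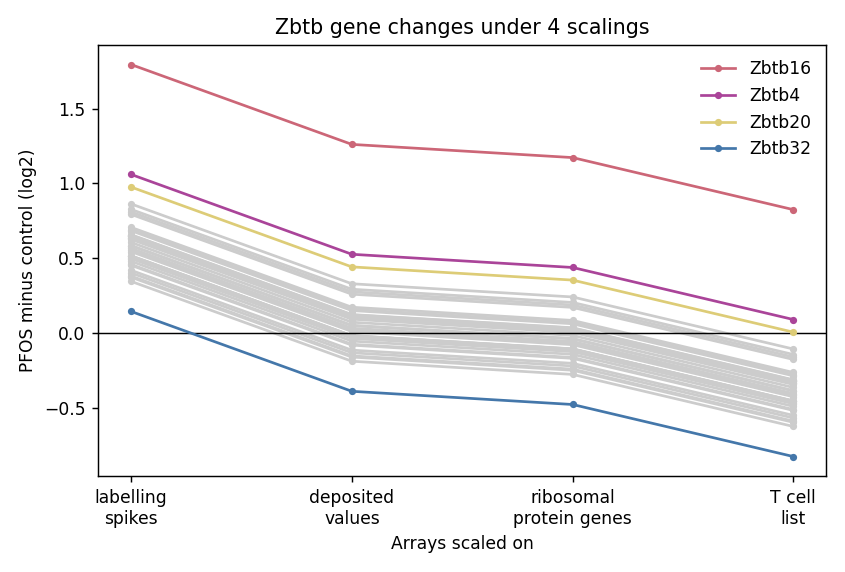
Log2 change (y axis) of the tested Zbtb genes when arrays are scaled on labelling spikes, left as deposited, or scaled on ribosomal protein genes or T cell markers (x axis); each line is a gene. Zbtb16 stays above 0 throughout, from 1.80 to 0.82, whereas Zbtb32 passes from 0.14 to -0.83.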

How the data were processed

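The authors deposited log2 values made with RMA (version not given), per the submitters' processing notes. This method subtracts background, gives all arrays like distributions and sums up each probe set, so changes are relative to an array's whole distribution. Per the labels' protocols, 6 ug of Trizol-extracted total RNA was labelled with biotin for each array. The sources used here give no genome build, detection calls or tests of the authors.

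From these values, probe sets with 1 symbol and a mean at or above the 40th percentile of non-control probe sets (5.62) were kept, and the one with the highest mean stood for its gene. The groups were compared with limma 3.58.1 in R 4.3.3 (lmFit, eBayes, Benjamini-Hochberg), once over 13101 genes and once over 22434 probe sets; the code was checked on simulated data. All 87 member probe sets matched RefSeq by identifier, and 5 with several symbols were left out.

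The members and lists were chosen with earlier results of these data known. Values were given in full for Zbtb16, up to 6 of the largest called rises and falls, and members with known immune or methyl-CpG roles; other lists were described by up to 4 genes of smallest p. Array groups are 3 controls and 3 PFOS, and the replicate numbers were not used as pairs.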

Additional observations from a re-analysis of the deposited data

Results flagged for a closer look

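Some Zbtb probe sets outside the tests had every PFOS array above every control array. Under the filter on low values, near the array's background, these were 1440423_at of Zbtb37 (a difference of 0.36), 1447330_at of Zbtb32 (0.25), 1457037_at of Zbtb2 (0.24), 1442567_at of Zbtb24 (0.18), 1430344_at of Zbtb25 (0.13) and 1446263_at of Zbtb49 (0.081). They were 6 of 15 such probe sets, while 2 lay wholly below control. The share over all probe sets under the filter was not computed. Among all genes tested, 43.2% lay wholly above control and 27.8% wholly below. Zbtb8os, named for the strand opposite Zbtb8, shares its probe sets with Gm8539, and 1426266_s_at went from 7.71, 7.69 and 7.68 in control to 8.17, 8.13 and 8.14 in PFOS (0.45), with 1452006_x_at at 0.26.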

How the results depend on the processing

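Zbtb16 was called higher in all 19 alternatives, with changes from 0.82 to 1.80 and adjusted p from 6.01e-10 to 7.65e-06, and Zbtb4 was called higher in all 19 as well. The counts of Zbtb genes and probe sets depended on the scaling. On ribosomal protein genes, 7 Zbtb genes were higher and 13 lower, 19 probe sets higher and 23 lower, over all genes 3278 higher and 5123 lower, and the Zbtb median was -0.028. On labelling spikes the values were 38 and 0 genes, 69 and 1 probe sets, 12065 and 723 of all genes, and a median of 0.59. On the T cell list they were 2 and 35 genes, 3 and 64 probe sets, 239 and 12070 of all genes, and a median of -0.38. These scalings add a constant to each array, which moves members and all genes alike. At an adjusted p under 0.01, 9 of 38 Zbtb genes were higher and 4 lower. Over all 13101 genes tested, 4198 were then higher and 2777 lower, or 53.2% called. Named members that changed direction on the spike scaling were Zbtb32 (0.14), Zbtb45 (0.34), Zbtb3 (0.37), Zbtb41 (0.38), Zbtb6 (0.40), Zbtb44 (0.42) and Zbtb1 (0.48). On the T cell scaling they were Zbtb24 (-0.11), Zbtb25 (-0.15), Zbtb17 (-0.16), Zbtb7b (-0.27), Zbtb7a (-0.32), Zbtb38 (-0.32), Zbtb46 (-0.39) and Zbtb33 (-0.43). On ribosomal protein genes Zbtb46 was at -0.040 and Zbtb33 at -0.079. The mean over probe sets turned 7 members, since probe sets of these genes differ: Zbtb7a (-0.20) and Zbtb14 (-0.26) were then called lower and Zbtb43 (0.083) higher, and Zbtb1 (0.012), Zbtb46 (-0.022), Zbtb34 (0.036) and Zbtb7c (0.00046) were not called. It lost the call of Zbtb21 (0.072) and moved Zbtb4 to 0.25, Zbtb20 to 0.26, Zbtb10 to 0.21 and Zbtb38 to 0.32. Zbtb33, near 0, turned with arrays centred on their median (-0.00018) and with array weights (-0.017); the cause was not tested. Without each array in turn, 12 to 14 Zbtb genes were higher and 5 to 7 lower, and 25 to 30 probe sets higher and 9 to 13 lower. Over all genes, 4824 to 5209 were higher and 3112 to 3313 lower. The Zbtb median ran from 0.05 to 0.08, Zbtb16 from 1.22 to 1.29 and Zbtb33 from -0.042 to 0.053.

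The labels link same-numbered samples by their number only, and whether these shared a batch was not tested. Deviations of same-numbered samples correlated at 0.32, 0.14 and 0.097, and 4 of 6 samples correlated best with their own number. With the replicate block, 17 Zbtb genes were higher and 7 lower, 35 probe sets higher and 13 lower, and over all genes 5518 higher and 3532 lower; the Zbtb16 change had an adjusted p of 5.20e-06. The block added the calls of Zbtb39 (adjusted p = 0.018) and Zbtb8a (0.043) and lost that of Zbtb38 (0.077). Leaving out probe sets with an _s_at, _x_at or _a_at suffix lost the call of Zbtb3 (-0.086, adjusted p = 0.103) and gives no value for Zbtb32, and the stricter filter none for Zbtb3. Other settings (no filter, a stricter filter, median centring, quantile normalization, trended variance, array weights) moved no Zbtb count by over 1.5 times.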
